A study of Mus musculus with 12 samples.

Results

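The 8 microRNAs (miRNAs) described here are both mature strands of miR-150 and of miR-342 and the 5p strands of miR-181a, miR-181b, miR-181c and miR-181d. In the count table they are mmu-mir-150-5p, mmu-mir-150-3p, mmu-mir-342-3p, mmu-mir-342-5p, mmu-mir-181a-5p, mmu-mir-181b-5p, mmu-mir-181c-5p and mmu-mir-181d-5p. They were chosen as miRNAs known from lymphocytes, by a rule that lists their names and uses no measured value. All 8 were among the 1978 miRNAs of the deposited count table, of which 1405 were counted in any library, and all 8 were counted above 0 in each of the 12 libraries. The study sequenced small RNA of 6 male C57BL/6 mice, taking both colon and blood from each mouse. Of these mice, 3 (1, 7 and 9) had 1.5% (wt/vol) dextran sulfate sodium (DSS, a polysaccharide that injures the colon epithelium) in their drinking water for 7 days, and 3 (2, 4 and 8) drank the same water without DSS. All mice were sacrificed on day 8, the DSS mice after a return to regular water, and were 8 weeks old when obtained. The study picked these mice from a larger set by their disease activity index.

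The labels contradict each other at 2 points that bear on every result. The disease state field puts mice 1, 2 and 4 under colitis and mice 7, 8 and 9 under control, whereas the study's plots name mice 1, 7 and 9 as the DSS mice. The latter grouping was used. Under the former, values stand beside part of the colon and blood results, and those with the opposite sign are gathered near the end. The tissue and source fields name opposite tissues for every library, so tissues were read from the library titles and set against marker miRNAs. The smooth muscle miRNA miR-143-3p was at 254229 to 350175 CPM (counts scaled to a common library size) in the colon libraries and at 174 to 381 CPM in the blood libraries. The erythroid miRNAs miR-486a-5p and miR-486b-5p, which can share reads, held 74.7% to 83.0% of the counts in blood and 0.251% to 0.442% in colon. Total counts were 15060553 to 20106226 per colon library and 21127134 to 32944792 per blood library.

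A miRNA is a short RNA that pairs with messenger RNAs mainly through its seed, bases 2 to 8 from its 5′ end, and lowers their translation or stability. miR-150 is abundant in mature B and T cells and is known for targeting the transcription factor Myb. miR-342 lies in an intron of the gene Evl and is found in many white blood cells. miR-181a is abundant in thymocytes and is known for tuning the sensitivity of the T cell receptor, and its family is also expressed in tissues without many lymphocytes. A change of such a miRNA in bulk tissue can come from fewer or more cells of a type or from less or more RNA per cell, and these cannot be told apart here.

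RefSeq (GRCm38.p6) held a mature sequence for 7 of the 8 miRNAs. They are shown because the 4 miR-181 strands share 1 seed and differ from each other by few bases, which matters for how their reads are counted. Capitals mark the seed, each sequence runs 5′ to 3′, and the 7 sequences hold 4 different seeds.
miR-150-3p: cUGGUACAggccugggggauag
miR-342-3p: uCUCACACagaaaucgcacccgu
miR-342-5p: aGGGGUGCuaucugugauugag
miR-181a-5p: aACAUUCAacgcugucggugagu
miR-181b-5p: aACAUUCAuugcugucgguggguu
miR-181c-5p: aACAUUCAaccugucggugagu
miR-181d-5p: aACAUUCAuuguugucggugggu

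Over their 23 shared positions, miR-181b-5p and miR-181d-5p differ by the single substitution C12U, with the base of miR-181b first and positions counted from 1 at the 5′ end. miR-181a-5p differs from miR-181b-5p by A9U, C10U and A21G over the same length, and from miR-181c-5p by an edit distance of 1. The counter was run with its default options, which tolerate a mismatch. Reads of miR-181b-5p may thus have been counted under miR-181d-5p or the reverse, which was not tested. Compared without gaps, the other pairs of miR-181 strands differ by 3 to 12 bases, and sharing of reads between them was not tested either. Reads of miR-181a and miR-181b also cannot be told apart by hairpin, since each has 2 loci.

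The miR-181 loci lie in 3 pairs in GRCm38.p6. On chromosome 1 (plus strand), miR-181a-5p is at chr1:137966468-137966490 and miR-181b-5p at chr1:137966650-137966673, with starts 182 bases apart, in an intron of the noncoding transcript Gm4258 and, on the opposite strand, of the lincRNA Gm26936, and miR-181b-5p is also in an exon of the lincRNA A430106G13Rik on its own strand. On chromosome 2 (plus strand) they are at chr2:38852741-38852763 and chr2:38853845-38853868, 1104 bases apart and opposite in strand to Nr6a1, in whose intron they fall, and miR-181b-5p there is also opposite an exon of the unclassified transcript Gm44144. On chromosome 8 (minus strand) miR-181c-5p is at chr8:84178924-84178945 and miR-181d-5p at chr8:84178759-84178781, 165 bases apart, in an intron of Nanos3 on its strand. miR-342-5p and miR-342-3p are at chr12:108658638-108658659 and chr12:108658680-108658702 (plus strand), in an intron of Evl. miR-150-3p is at chr7:45121798-45121819 (plus strand), where GENCODE vM21 lists no other gene.

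The 8 miRNAs spanned over 2 orders of magnitude in colon. Levels are CPM after TMM scaling (trimmed mean of M values, which sets a scaling factor per library) within a tissue, and mature miRNAs of 22 to 24 bases were compared without a length term. In the 6 colon libraries miR-181a-5p had a mean of 1667 ± 137 CPM (SD, n = 6), ranking 48 among 1300 detected miRNAs. It was followed by miR-181b-5p at 515.7 ± 60.4 CPM and miR-181d-5p at 149 ± 29.3 CPM, and the ranges of these 3 did not overlap. miR-150-5p (63.4 ± 33.2 CPM), miR-342-5p (49.4 ± 9.85 CPM), miR-342-3p (19.1 ± 7.94 CPM), miR-181c-5p (12.5 ± 1.15 CPM) and miR-150-3p (3.48 ± 2.09 CPM) came next. Neighbours overlapped between miR-181d-5p, miR-150-5p and miR-342-5p, and between miR-342-3p and miR-181c-5p, so these orders are within the spread of the libraries.

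In blood the order was flatter. miR-181a-5p was at 130.1 ± 37.3 CPM (SD, n = 6), miR-150-5p at 92.8 ± 22.6 CPM, miR-181d-5p at 79.6 ± 15.0 CPM and miR-181b-5p at 56.8 ± 8.93 CPM, with overlapping ranges between each of these neighbours. Within each library, however, miR-181d-5p was above miR-181b-5p in 6 of 6. miR-342-5p (13.9 ± 3.86 CPM) stood apart from both its neighbours. The lowest were miR-342-3p (6.53 ± 1.61 CPM), miR-150-3p (6.28 ± 1.48 CPM) and miR-181c-5p (3.33 ± 1.84 CPM), whose ranges overlapped. Within a library, miR-150-3p was above miR-181c-5p in 6 of 6 and miR-342-3p above miR-150-3p in 3 of 6. Within a strand pair the dominant strand was the same in every library, 5p over 3p for miR-150 and 5p over 3p for miR-342.

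**Figure D1:**
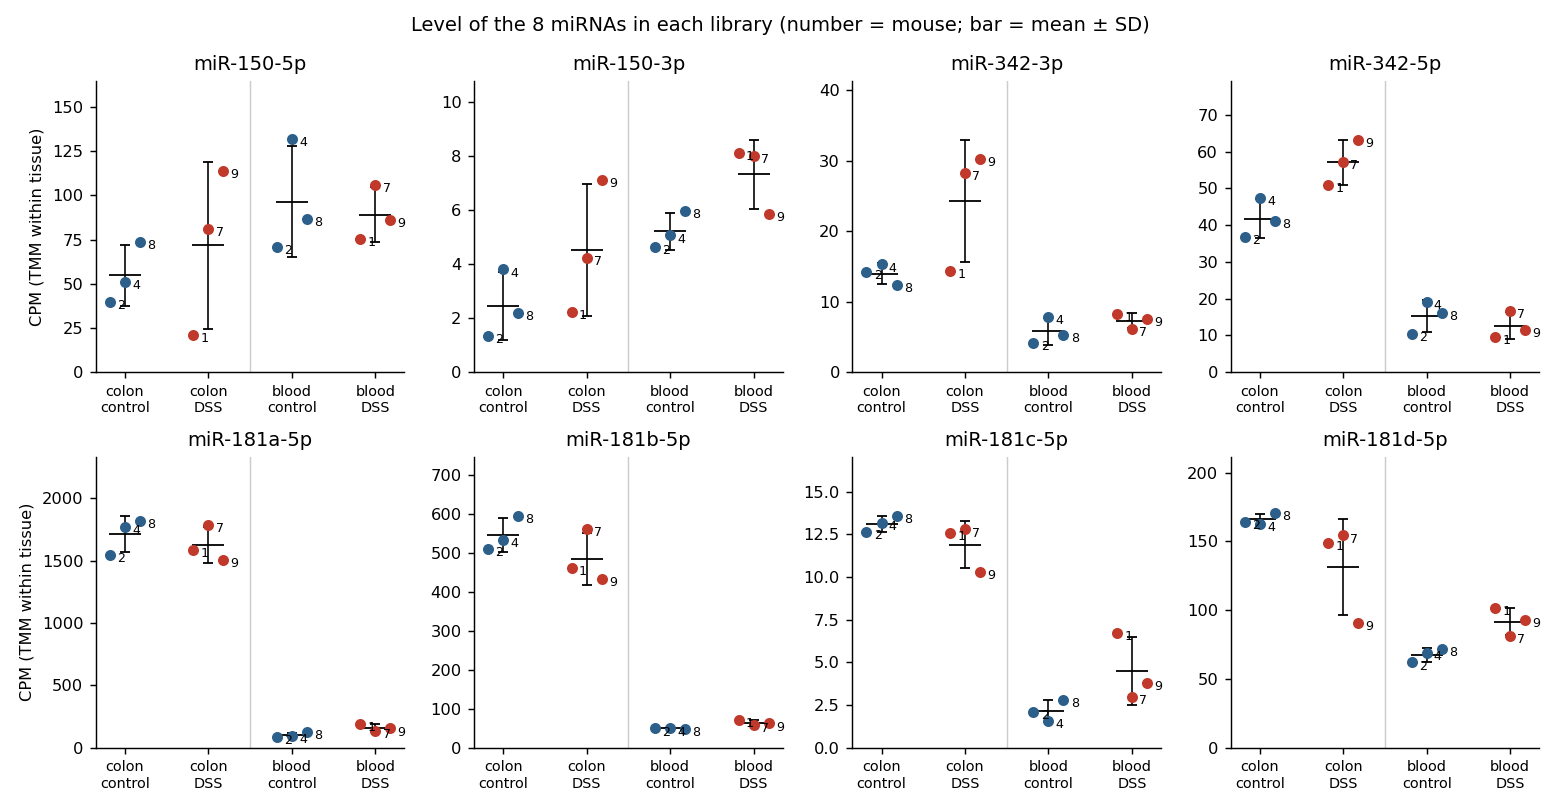
Level of each of the 8 miRNAs in each of the 12 libraries, in CPM after TMM scaling within a tissue, with the mouse number beside each point and the mean ± SD as bars (n = 3 per group). Blue points are control mice and red points DSS mice, and colon and blood were scaled separately. In blood the 4 miR-181 strands lay higher in all 3 DSS mice than in all 3 control mice, while colon mouse 9 was high for miR-150 and miR-342 and low for miR-181d-5p.

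The comparison of DSS with control mice in colon asked which miRNAs change in the inflamed tissue. None of the 8 miRNAs was called (0 of 8), against 10.1% of all 542 miRNAs tested (55 called). The background depends on the scaling, with 16 called with RLE factors and 8 with upper-quartile factors, none of them among the 8 miRNAs described here. Called means that edgeR's quasi-likelihood test gave an adjusted p (Benjamini-Hochberg, over all tested miRNAs) no higher than 0.05 and that the fold change was over 1.5. The miR-342 strands came nearest to the threshold. The median log2 fold change of the 8 was 0.16, beside 0.04 over all 542, with 4 of the 8 above 0.

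miR-150-5p, the B and T cell miRNA, was at 20.8, 80.9 and 114 CPM in DSS mice 1, 7 and 9 and at 39.9, 50.9 and 73.8 CPM in control mice 2, 4 and 8. The DSS mice held both the lowest and the highest value, and the groups overlapped. Its log2 fold change was 0.39 (SE 0.56, adjusted p = 0.651, edgeR), and without mouse 9 it was -0.11. The other strand, miR-150-3p, was at 2.22, 4.23 and 7.12 CPM in DSS mice and at 1.33, 3.80 and 2.19 CPM in control mice, from counts as low as 20. It was again highest in mouse 9, with a log2 fold change of 0.90 (SE 0.51, adjusted p = 0.266).

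miR-342-3p was at 14.4, 28.3 and 30.3 CPM in DSS mice 1, 7 and 9 and at 14.3, 15.3 and 12.3 CPM in control mice. Mice 7 and 9 were above all controls and mouse 1 was among them. The log2 fold change was 0.80 (SE 0.29), with an unadjusted p of 0.0280 and an adjusted p = 0.118 from edgeR. Without mouse 1 the log2 fold change was 1.06 and miR-342-3p was called (adjusted p = 0.0173), so that 1 library decided this call. miR-342-5p was at 50.9, 57.2 and 63.2 CPM in DSS mice and at 36.8, 47.3 and 41.2 CPM in control mice. Its lowest DSS mouse was above its highest control mouse, as for 22.5% of all 542 miRNAs, with a log2 fold change of 0.45 (SE 0.16, adjusted p = 0.118).

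The miR-181 strands had log2 fold changes below 0 in colon. miR-181a-5p was at 1585, 1783 and 1506 CPM in DSS mice and at 1545, 1767 and 1817 CPM in control mice, with a log2 fold change of -0.07 (SE 0.13, adjusted p = 0.698). miR-181b-5p (log2 fold change -0.17, SE 0.14, adjusted p = 0.428) and miR-181c-5p (-0.14, SE 0.16, adjusted p = 0.557) overlapped between the groups as well. miR-181d-5p was at 149, 154 and 90.9 CPM in DSS mice and at 164, 163 and 171 CPM in control mice. Every DSS mouse was below every control mouse, as for 16.1% of all 542 miRNAs, but only mouse 9 was far below, by total counts alone the groups overlapped, and the log2 fold change of -0.34 (SE 0.21) had an adjusted p = 0.311. When libraries were scaled by total counts alone, the median over all 542 miRNAs moved from 0.04 to 0.26 and the log2 fold changes of miR-181a-5p, miR-181b-5p and miR-181c-5p turned to 0.14, 0.04 and 0.06, all still below that median.

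Markers of other cells moved in the same libraries. Of the other leukocyte miRNAs (miR-155, miR-146a, miR-146b and miR-142a), 2 of 5 tested were called and higher in DSS mice, miR-155-5p (log2 fold change 1.29, SE 0.33, adjusted p = 0.0491) and miR-146a-5p (0.83, SE 0.18, adjusted p = 0.0431). The summed level of all 6 on that list was 2930 to 4763 CPM in DSS mice and 1840 to 2460 CPM in control mice. The most abundant of them in colon, miR-146b-5p, was higher in every DSS mouse but not called (0.68, SE 0.20, adjusted p = 0.0739), and miR-142a-5p, the most abundant over all 12 libraries, was not called either (1.04, SE 0.43, adjusted p = 0.149). Its other strand, miR-142a-3p, was also higher in every DSS mouse and not called (1.60, SE 0.47, adjusted p = 0.0728). Both strands of the myeloid miRNA miR-223 were called, with sums of 63.9 to 124 CPM against 23.1 to 24.4 CPM. The log2 fold change was 1.82 (SE 0.20, adjusted p = 0.0147) for miR-223-5p, the more frequent strand in all 6 colon libraries, and 1.93 (SE 0.41, adjusted p = 0.0431) for miR-223-3p. Of 8 epithelial miRNAs, 4 were called and lower, with sums of 52896 to 121841 CPM against 155668 to 195315 CPM and miR-192-5p as the most abundant (-1.29, SE 0.31, adjusted p = 0.0491). None of the 4 erythroid, 2 endothelial and 4 smooth muscle miRNAs tested was called, and their most abundant members were miR-486b-5p (0.16, SE 0.19), miR-126a-3p (0.41, SE 0.12) and miR-143-3p (-0.02, SE 0.24). No miRNA of the colon was called (0 of all tested) when mouse 2, 4, 7 or 8 was left out, while 44 and 37 were without mouse 1 or 9. The sizes held without those 4 mice, at 1.14 to 1.43 for miR-155-5p, 0.71 to 0.97 for miR-146a-5p, 1.79 to 1.90 for miR-223-5p and -1.41 to -1.18 for miR-192-5p. With RLE or upper-quartile factors miR-223-5p and the epithelial miR-429-3p were the only markers still called. Mouse 9, highest for both strands of miR-150 and of miR-342, was also highest for the summed leukocyte and myeloid miRNAs and lowest for the summed epithelial miRNAs. The part of these cell types in the values of miR-150, miR-342 and miR-181d-5p was not tested. Under the grouping of the disease state field, none of the 8 was called in colon, 0 of all 542 were called (20 with an unadjusted p under 0.05, edgeR), and the log2 fold changes were -1.27 for miR-150-5p and -0.69 for miR-342-3p.

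In blood, none of the 8 miRNAs was called (0 of 8), nor was any of the 484 tested (0%), of which 56 (11.6%) had an unadjusted p under 0.05 with edgeR and 10 were called by DESeq2, none of them among the 8. The 4 miR-181 5p strands were each higher in all DSS mice than in all control mice (4 of 8), which held for 7.44% of all 484 miRNAs. By total counts alone the groups overlapped for all 4, with DSS mouse 7 below control mouse 8, and the share over all 484 was 4.96%. The 4 lie in pairs at their loci, and miR-181b-5p and miR-181d-5p may share reads, so the 4 do not count as 4 separate observations. The median log2 fold change of the 8 was 0.41, beside -0.05 over all 484.

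miR-181a-5p was at 188, 132 and 154 CPM in DSS mice 1, 7 and 9 and at 86.4, 97.7 and 123 CPM in control mice 2, 4 and 8. Its log2 fold change was 0.63 (SE 0.24), with an unadjusted p of 0.0284 and an adjusted p = 0.362 from edgeR. miR-181b-5p was at 70.9, 59.3 and 62.3 CPM in DSS mice against 49.5, 49.4 and 49.3 CPM in control mice (0.38, SE 0.20, adjusted p = 0.496). The 3 control values of miR-181b-5p lay close together, and its fold change was the smallest of the 4.

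miR-181c-5p, the least abundant, was at 6.75, 2.97 and 3.79 CPM in DSS mice against 2.11, 1.55 and 2.82 CPM in control mice. Mouse 1 was far above the rest and mouse 7 lay just over the highest control. The log2 fold change was 1.05 (SE 0.37, unadjusted p of 0.0211, adjusted p = 0.360, edgeR), and fits that each left out 1 mouse gave 0.68 to 1.35. miR-181d-5p was at 101.3, 81.3 and 92.6 CPM in DSS mice against 62.0, 69.0 and 71.6 CPM in control mice (0.44, SE 0.20, adjusted p = 0.420). All 4 kept a log2 fold change above 0 under 5 scalings of the libraries, whichever mouse was left out, and with limma on the deposited normalized signal. Under the grouping of the disease state field they were -0.13, -0.01, 0.15 and -0.08 for miR-181a-5p to miR-181d-5p in alphabetical order.

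miR-150-5p overlapped between the groups in blood, at 75.6, 106 and 85.9 CPM in DSS mice and 71.0, 132 and 86.7 CPM in control mice. Its log2 fold change was -0.11 (SE 0.28, adjusted p = 0.925), and its sign depended on the scaling, with 0.13 by total counts alone. miR-150-3p was at 8.13, 8.03 and 5.86 CPM in DSS mice and 4.63, 5.07 and 5.97 CPM in control mice, so only DSS mouse 9 fell among the controls (0.49, SE 0.25, adjusted p = 0.451). miR-342-3p (0.35, SE 0.29, adjusted p = 0.697) and miR-342-5p (-0.27, SE 0.31, adjusted p = 0.798) overlapped between the groups.

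With edgeR none of the marker lists had a called member in blood, but in several of them single markers did not overlap between DSS and control mice. The study itself, with DESeq2, lists miR-223-3p as higher and miR-126a-3p and miR-215-5p as lower in blood of DSS mice. Of all 484 miRNAs, 7.44% were higher and 9.92% lower in every DSS mouse, so markers apart in this way are also part of the background. The myeloid strand miR-223-3p was at 38.3, 20.3 and 23.2 CPM in DSS mice and 9.52, 12.03 and 11.4 CPM in control mice (1.31, SE 0.29, adjusted p = 0.165), higher in every DSS mouse. Its partner miR-223-5p had the opposite sign, at 5.26, 2.87 and 1.80 CPM against 7.23, 5.70 and 4.48 CPM (-0.80, SE 0.40, adjusted p = 0.451), and the groups overlapped. The endothelial and platelet miRNA miR-126a-3p was at 16.1, 13.4 and 16.1 CPM in DSS mice and 56.6, 30.8 and 37.5 CPM in control mice (-1.45, SE 0.28, unadjusted p of 0.000708, adjusted p = 0.165). Every DSS mouse was below every control mouse for it, and the sums of its list were 13.4 to 16.3 CPM against 31.0 to 57.3 CPM. The erythroid miRNA miR-451a was likewise lower in every DSS mouse, at 5915, 9890 and 7775 CPM against 10005, 11975 and 12843 CPM (-0.56, SE 0.25, adjusted p = 0.420). The sums of the 5 erythroid miRNAs, made up almost wholly of miR-486, overlapped at 579877 to 864762 CPM against 636744 to 1142845 CPM. Among the other leukocyte miRNAs, whose sums were 4635 to 5714 CPM against 3205 to 5299 CPM, the most abundant, miR-142a-5p, overlapped between the groups (0.22, SE 0.26, adjusted p = 0.806). In the same list miR-146b-5p was lower in every DSS mouse (-0.59, SE 0.20, adjusted p = 0.360), and miR-155-5p higher (0.33, SE 0.26, adjusted p = 0.697). The sums of the 8 epithelial miRNAs were 943 to 1109 CPM in DSS mice against 1112 to 1310 CPM, with miR-194-5p (-0.78, SE 0.22) and miR-215-5p (-0.85, SE 0.23) lower in every DSS mouse (adjusted p = 0.246 for both) and the other 6 overlapping. The 4 smooth muscle miRNAs overlapped, with sums of 193 to 259 CPM against 188 to 389 CPM. The part of these cells in the miR-181 values was not tested.

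**Figure D2:**
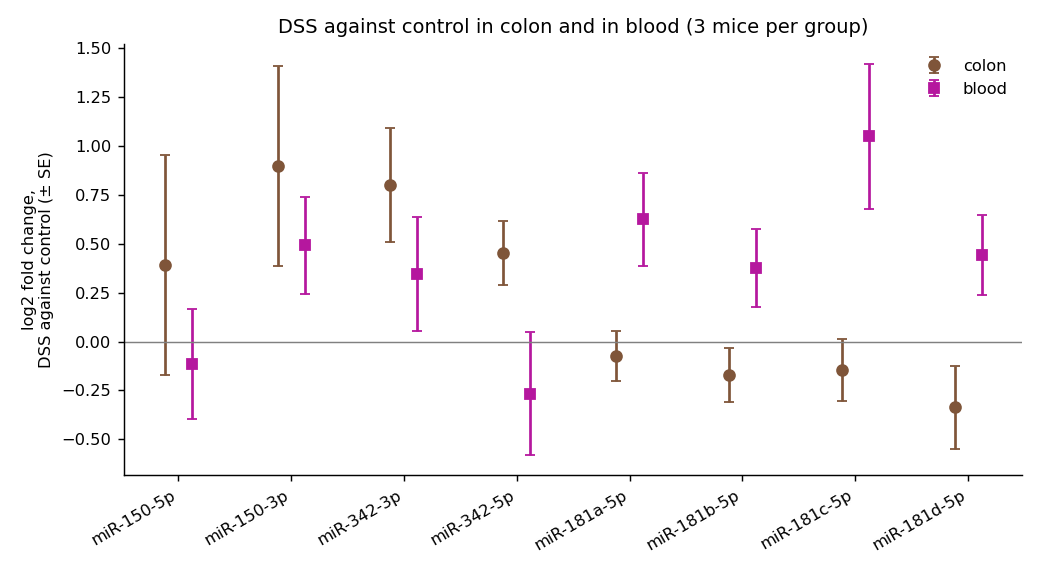
Log2 fold change of DSS against control mice for each of the 8 miRNAs, in colon (brown circles) and in blood (magenta squares), from edgeR on 3 mice per group, with bars of ± 1 SE. The miR-181 strands lay below 0 in colon (-0.07 to -0.34) and above 0 in blood (0.38 to 1.05), and no value was past the call in either tissue.

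The difference between tissues in the response to DSS was tested as an interaction over all 12 libraries. No member was called (0 of 8), nor was any of the 680 miRNAs tested (0%), of which 94 (13.8%) had an unadjusted p under 0.05 with edgeR. By DESeq2's test of the same term 37 were called, none of them among the 8. The effect in blood minus the effect in colon was 1.01 for miR-181a-5p (SE 0.41), 0.88 for miR-181b-5p (SE 0.37), 1.52 for miR-181c-5p (SE 0.57) and 1.10 for miR-181d-5p (SE 0.42) on the log2 scale, with adjusted p from 0.300 to 0.317 (edgeR). For miR-150-5p (-0.16), miR-150-3p (-0.07), miR-342-3p (-0.11) and miR-342-5p (-0.39) the adjusted p was 0.747 or more. The median of this term over all 680 miRNAs was 0.22. With the mouse as a replicate block the 4 miR-181 terms were 1.02, 0.87, 1.47 and 1.14 and none was called, against 1 of all 680 miRNAs. Under the grouping of the disease state field the term had the opposite sign for miR-181a-5p, miR-181d-5p, both strands of miR-150 and miR-342-3p. None of the 8, and 0 of all 680, were called under it. With TMM scaling, miR-181d-5p was the only one of the 8 apart between the groups in both tissues with opposite signs (1 of 8), as were 3.92% of the 357 miRNAs tested in both.

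Blood was compared with colon to see where each miRNA was more abundant. In control mice 7 of the 8 were called, against 86.5% of all 680 miRNAs, and in DSS mice 6 of 8, against 83.4%. Of these, 2 were higher in blood in both kinds of mice, against 35.7% and 36% of all miRNAs, while 5 and 4 were lower, against 50.7% and 47.4%. These shares are close to the background, so that being called says little here, and the directions and sizes are given instead. miR-150 was higher in blood and miR-181a and miR-181b were lower, so the 8 miRNAs did not share 1 direction as a group of lymphocyte miRNAs, and no direct count of lymphocytes was at hand to set beside them. Levels in this comparison are CPM after TMM scaling over all 12 libraries.

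miR-150-5p was at 113 ± 31.1 CPM in blood and 42.9 ± 12.9 CPM in colon of control mice (SD, n = 3 each), with a log2 difference of 1.39 (SE 0.48, adjusted p = 0.0136, edgeR). In DSS mice it was at 129 ± 32.9 CPM against 54.9 ± 36.0 CPM, with a log2 difference of 1.23 (SE 0.48, adjusted p = 0.0263). This call in DSS mice was lost without mouse 1, 7 or 8 (0.79, 1.14 and 1.03, adjusted p of 0.0740, 0.106 and 0.0732), and the difference was 1.86 without mouse 9. In control mice the call was lost without mouse 4 (1.15, adjusted p = 0.0984). miR-150-3p was higher in blood by 1.70 (SE 0.47, adjusted p = 0.00351) and 1.64 (SE 0.46, adjusted p = 0.00385) in control and DSS mice. Without mouse 8 the difference in control mice was 1.26 and not called (adjusted p = 0.0688), and in DSS mice, where it was called whichever mouse was left out, it ran from 1.11 without mouse 1 to 2.36 without mouse 9. Both strands stayed above 0 under all 5 scalings, but by total counts alone neither was called, with 0.80 and 0.20 for miR-150-5p.

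miR-181a-5p was lower in blood in both kinds of mice. It was at 123 ± 43.8 CPM in blood and 1341 ± 95.9 CPM in colon of control mice, a log2 difference of -3.44 (SE 0.32, adjusted p = 1.1e-07, edgeR), and the difference in DSS mice was -2.43 (SE 0.31, adjusted p = 2.82e-06). miR-181b-5p differed by -2.87 (SE 0.28) and -1.99 (SE 0.27), and both were lower in blood under all 5 scalings. miR-181c-5p was lower in control mice (-1.96, SE 0.41, adjusted p = 0.000416) and had -0.44 (SE 0.39, adjusted p = 0.307) in DSS mice, where it was called without mouse 1 (-1.01, adjusted p = 0.0260). miR-181d-5p was at 80.3 ± 18.2 CPM in blood and 130.2 ± 2.34 CPM in colon of control mice (-0.70, SE 0.30, adjusted p = 0.0384), and at 133 ± 32.5 CPM and 100.3 ± 27.6 CPM in DSS mice (0.40, SE 0.29, adjusted p = 0.211). With the mouse as a replicate block miR-181d-5p in control mice had an adjusted p = 0.0571 and was not called, and the call was also lost without mouse 2 or 4 (-0.63 and -0.66, adjusted p of 0.160 and 0.140).

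miR-342-5p was lower in blood in control mice (-0.87, SE 0.33, adjusted p = 0.0234) and DSS mice (-1.26, SE 0.33, adjusted p = 0.00253). miR-342-3p had -0.70 (SE 0.35, adjusted p = 0.0733) in control mice and was called in DSS mice (-0.81, SE 0.35, adjusted p = 0.0412), a call lost with the replicate block (adjusted p = 0.114) and without mouse 4, 7 or 9 (-0.83, -0.59 and -0.51, adjusted p of 0.0536, 0.234 and 0.273). In control mice the call of miR-342-5p was lost without mouse 2 or 4 (-0.75 and -0.86, adjusted p of 0.0928 and 0.0798), and miR-342-3p was called without mouse 1 or 8 (-0.71 and -1.01, adjusted p of 0.0322 and 0.0456). The signs of these differences depend on the scaling. With total counts taken without miR-486, the median over all miRNAs in control mice moved from -1.14 to 0.39, and miR-342-3p, miR-342-5p and miR-181d-5p turned to 0.91, 0.74 and 0.89. Relative to these medians miR-342 and miR-181d-5p were higher than the typical miRNA under both scalings in control mice. In DSS mice the median moved from -0.70 to 0.57, and relative to it miR-181d-5p was higher under both scalings (0.40 and 1.76) while miR-342-3p (-0.81 and 0.46) and miR-342-5p (-1.26 and 0.02) were lower.

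**Figure D3:**
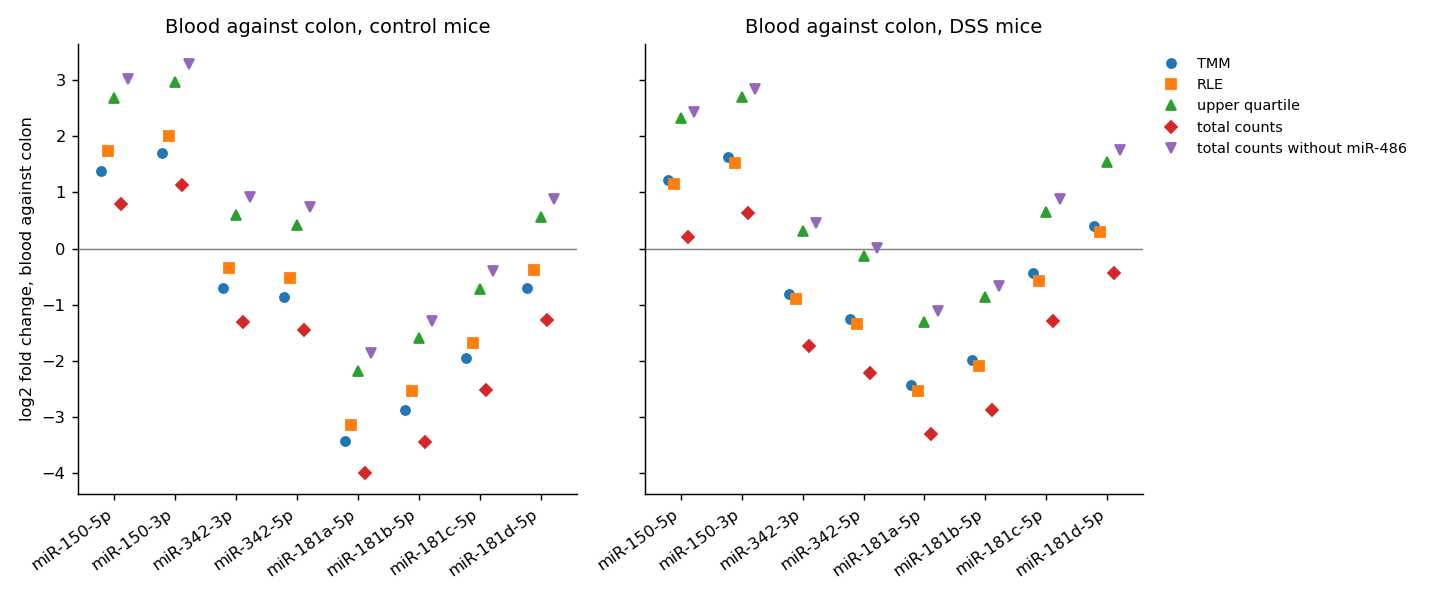
Log2 fold change of blood against colon for each of the 8 miRNAs in control mice (left) and DSS mice (right) under 5 scalings of the libraries, each with its own symbol. miR-150 was above 0 and miR-181a-5p and miR-181b-5p were below 0 under all 5, whereas miR-342-3p, miR-342-5p and miR-181d-5p lay on either side of 0 in both kinds of mice and miR-181c-5p did so in DSS mice (-1.29 to 0.88).

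Ratios of 2 miRNAs within a library need no scaling. They were tested as log2 ratios of counts, with exact permutation tests for DSS against control (p of at least 0.1 with 3 mice against 3) and exact sign-flip tests over the 6 mice for blood against colon (p of at least 0.03125), and p-values were adjusted over all 21 tests. With the 7 tests between tissues all at their smallest p the adjusted p would be 0.0938, so no ratio could pass 0.05 with these tests and this adjustment.

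The make-up of the miR-181 family differed between the tissues in 6 of 6 mice. In colon, miR-181a-5p held 71.2% ± 1.59 of the counts of the 4 strands (SD, n = 6), miR-181b-5p 21.96% ± 0.855, miR-181d-5p 6.31% ± 0.990 and miR-181c-5p 0.535% ± 0.0284. In blood the shares were 47.7% ± 3.09, 21.4% ± 2.07, 29.7% ± 1.45 and 1.17% ± 0.368 in the same order. The share of miR-181d-5p was thus 27.6% to 31.7% in blood and 4.45% to 7.36% in colon, without overlap, from totals of 3781 to 14576 counts in blood and 30820 to 52727 in colon. The ratio of miR-181d-5p to miR-181a-5p was higher in blood by 2.83 on the log2 scale, that of miR-181c-5p by 1.67 and that of miR-181b-5p by 0.54, each in 6 of 6 mice (exact sign-flip test, p = 0.03125, the smallest possible, adjusted p = 0.164). miR-181d-5p and miR-181b-5p, which differ by C12U, had a ratio of 1.25 to 1.49 in blood and 0.210 to 0.323 in colon. The miR-181b to miR-181d order was thus opposite in the tissues in every mouse.

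**Figure D4:**
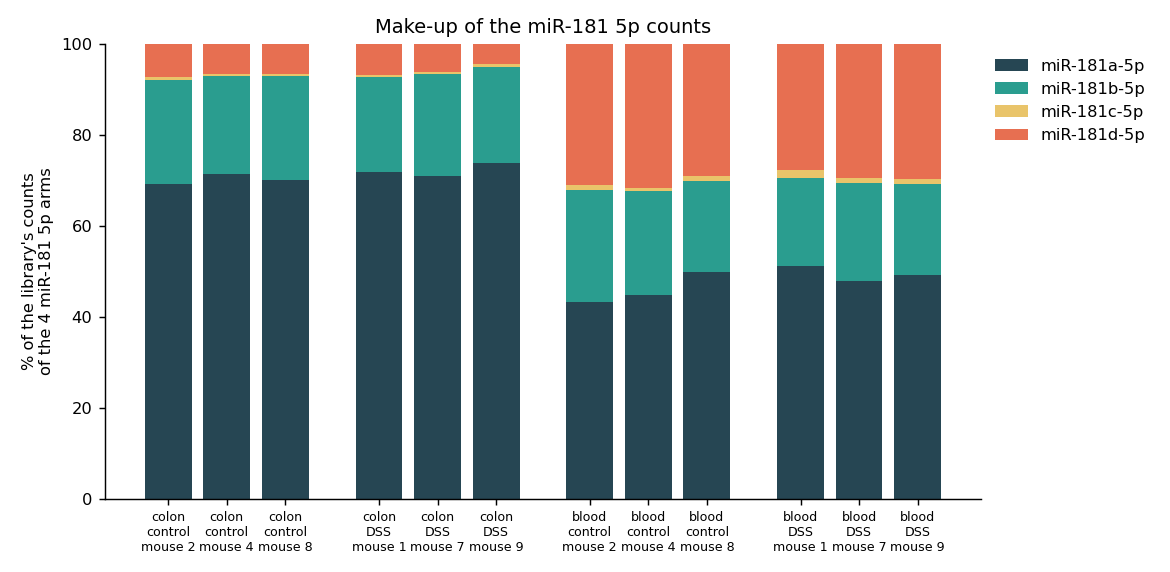
Stacked bars give the share of each miR-181 5p strand in the summed counts of the 4 strands, in percent, for each of the 12 libraries. miR-181d-5p (orange, top) held 27.6% to 31.7% in blood and 4.45% to 7.36% in colon, and miR-181a-5p (dark, bottom) 43.2% to 51.2% and 69.2% to 73.8%.

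Within a tissue, the make-up of the family overlapped between DSS and control mice. The ratio of miR-181d-5p to miR-181a-5p differed between DSS and control mice by -0.30 in colon and -0.19 in blood on the log2 scale, with overlapping groups (exact permutation test, p = 0.3 for both, adjusted p = 0.42). The ratio of miR-181b-5p to miR-181a-5p differed by -0.10 and -0.25, and that of miR-181c-5p by -0.08 and 0.38, again with overlap.

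The strand ratios of miR-150 and miR-342 overlapped between all groups. miR-150-5p was counted 9.22 to 33.2 times as often as miR-150-3p in colon and 9.29 to 25.9 times in blood. Blood and colon differed by -0.30 on the log2 scale, with 2 of 6 mice higher in blood (exact sign-flip test, p = 0.375, adjusted p = 0.42). miR-342-3p was counted 0.283 to 0.495 times as often as miR-342-5p in colon and 0.333 to 0.859 times in blood (0.36, 5 of 6 mice higher in blood, exact sign-flip test, p = 0.219). The ratio of miR-150-5p to miR-342-3p was 1.44 to 5.96 in colon and 9.12 to 17.2 in blood, higher in blood in 6 of 6 mice by 2.21 on the log2 scale (exact sign-flip test, p = 0.03125, adjusted p = 0.164).

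Against the myeloid miRNA miR-223-3p, miR-150-5p was lower in DSS mice in both tissues, but against the other strand, miR-223-5p, it was so only in colon. In colon the ratio to miR-223-3p of counts was 1.09, 3.01 and 1.97 in DSS mice 1, 7 and 9 and 4.12, 5.39 and 9.02 in control mice 2, 4 and 8. In blood it was 1.98, 5.22 and 3.70 in DSS mice and 7.44, 10.9 and 7.62 in control mice. The groups did not overlap in either tissue, and mouse 1 was lowest in both. The log2 differences were -1.65 in colon and -1.34 in blood (exact permutation test, p = 0.1, the smallest possible, adjusted p = 0.3). Under the grouping of the disease state field the difference in blood was no longer below 0. miR-223-3p itself was called in colon and higher in every DSS mouse in blood, as given above, while miR-150-5p alone overlapped between the groups in both tissues. The ratio of miR-150-5p to miR-223-5p, added after the values were seen and not tested, was 0.463, 1.78 and 1.72 in DSS mice and 2.71, 3.42 and 4.94 in control mice in colon. In blood it was 14.3, 36.7 and 47.1 in DSS mice and 9.79, 23.0 and 19.3 in control mice, so the groups overlapped and the mean was higher in DSS mice.

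**Figure D5:**
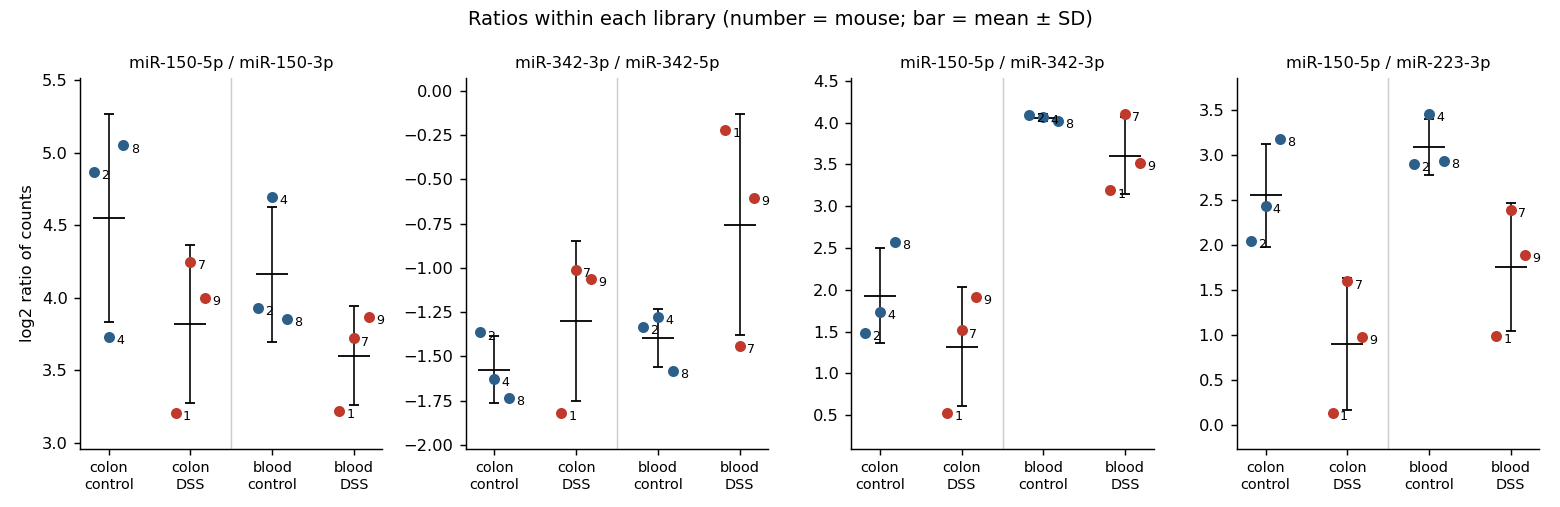
Log2 ratios of counts within each library for 4 pairs of miRNAs, with the mouse number beside each point and the mean ± SD as bars (n = 3 per group, blue for control and red for DSS mice). Of the 4 pairs, DSS and control mice are apart in both tissues only for miR-150-5p to miR-223-3p (log2 differences of -1.65 in colon and -1.34 in blood), and in 6 of 6 mice the ratio of miR-150-5p to miR-342-3p in blood exceeded that in colon.

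Of the other strands of the miR-181 hairpins, 3 of the 6 were counted often enough to be tested. miR-181a-1-3p, from the chromosome 1 hairpin, was at 9.98 to 13.2 CPM in colon and 1.77 to 4.06 CPM in blood with TMM scaling over all 12 libraries, and was lower in blood like miR-181a-5p (-2.34 in control mice, SE 0.31, adjusted p = 4.19e-06, and -1.63 in DSS mice, SE 0.30, adjusted p = 0.000107, edgeR). miR-181a-2-3p, from the chromosome 2 hairpin, was at 6.12 to 15.9 CPM in colon and 2.97 to 9.72 CPM in blood on the same scale and was not called (-0.87, SE 0.44, adjusted p = 0.0748, and -0.61, SE 0.44, adjusted p = 0.201). These strands are the only ones that tell the miR-181a loci apart. miR-181c-3p was counted 0.411 to 0.752 times as often as miR-181c-5p in colon and 0.933 to 3.62 times in blood, so the more frequent strand of miR-181c was 5p in every colon library and 3p in 5 of 6 blood libraries. miR-181d-3p was at 0 to 3 counts in every library, miR-181b-1-3p at 0 to 2 in blood and 6 to 10 in colon, and miR-181b-2-3p at 0 to 1 and 1 to 8. None of the 3 tested strands was called between DSS and control mice in either tissue.

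The miRNAs most like miR-181a-5p and miR-150-5p were found by Pearson's correlation of log2 CPM over the 12 libraries, among 680 miRNAs. As the 12 libraries are of 2 tissues, such values mostly describe the difference between them. For miR-181a-5p these were miR-181b-5p (0.996), miR-29b-3p (0.992), miR-338-5p (0.991), miR-23a-3p (0.991) and its hairpin partner miR-181a-1-3p (0.991). For miR-150-5p they were miR-877-3p (0.915), miR-93-3p (0.891), miR-7665-5p (0.872), miR-1958 (0.871) and miR-324-3p (0.866), of which 3 were at 0 counts in some library, and miR-150-3p came eighth (0.858). With each library taken as its deviation from its group mean, miR-181a-5p was followed by miR-185-5p (0.934), miR-29b-3p (0.929), miR-145a-3p (0.918), miR-29a-3p (0.917) and miR-1843a-5p (0.911), with miR-181c-5p (0.908) and miR-181b-5p (0.905) next and miR-181d-5p at 0.808. For miR-150-5p the leading ones were then miR-5114 (0.944), miR-93-3p (0.929), miR-8116 (0.921), miR-877-3p (0.919) and miR-34b-5p (0.886), with miR-342-3p at 0.745 and miR-150-3p at 0.717. The libraries share mice and scaling factors, so these values are a description only.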

How the data were processed

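The authors trimmed the small RNA reads with Flexbar, collapsed them with fastx-toolkit and counted them on mature mouse miRNAs of miRBase (22) with the quantifier of miRDeep2 (2.0.1.0, default options), and deposited these counts for each library. They also deposited a normalized signal per tissue, the count divided by a DESeq2 (1.22.2) size factor, which was used only in an alternative. Counts were tested with edgeR (4.0.16, R 4.3.3; filterByExpr, TMM, glmQLFit and glmQLFTest, no covariates) in each tissue alone (542 miRNAs in colon, 484 in blood) and, for tissues and the interaction, in 1 fit of 12 libraries with a mean per group (680 miRNAs). p-values were adjusted over all miRNAs tested. The standard error is the log2 fold change divided by the root of F. The fits were also run on counts simulated with the spread estimated from these data, which checks the code and not the calls. Ratios were log2 of counts with 0.5 added, tested with scipy (1.17.1). The miRNAs and marker lists were chosen with earlier results of these data known.

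Alternatives were other scalings, filters of none or 10 counts in every library, DESeq2 (1.42.0), limma (3.58.1) on log2(signal + 1), identical entries kept once, 1 added to each count in the ratios, each mouse left out, and the grouping of the disease state field. Colon and blood libraries with the same number come from the same mouse. The deviations of a mouse's 2 libraries from their group means correlated at -0.24 to 0.06 (mean -0.10, 288 miRNAs), and fits with the mouse as replicate block were alternatives. Named were the 8 miRNAs, other strands of the miR-181 hairpins, the most abundant marker of each list and any marker a result turned on, and the 5 miRNAs most like miR-150-5p and miR-181a-5p. miR-142a-3p, miR-146b-5p, miR-155-5p in blood, miR-194-5p, miR-215-5p, miR-223-5p, miR-429-3p and miR-451a were named after their values were seen. At these depths counts of the 8 were 20 to 38919, so counting error is largest for miR-150-3p and miR-181c-5p.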

Additional observations from a re-analysis of the deposited data

Results flagged for a closer look

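Of the 8 miRNAs, only miR-181d-5p was apart between the groups in both tissues, and the sign was opposite in blood and colon, as for 3.92% of the 357 miRNAs tested in both. In blood all 3 DSS mice were above all 3 control mice, and in colon all 3 were below, with TMM scaling (7.44% of all miRNAs tested in blood and 16.1% in colon). By total counts alone the groups overlapped in both tissues. Under the grouping of the disease state field the sign of miR-181d-5p turned in colon, in blood and in the interaction. The effect in blood minus the effect in colon was 1.10 on the log2 scale (SE 0.42), with an adjusted p = 0.300 (edgeR's interaction test over 680 miRNAs), so the difference did not pass the test.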

How the results depend on the processing

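Fits without 1 mouse each gave 0 to 1 called members in colon, 0 in blood, 4 to 8 for blood against colon in control mice, 4 to 6 in DSS mice, 0 for the interaction and 0 of the ratios. Of all miRNAs, these fits called 80.5% to 88.3% between tissues in control mice and 78.7% to 83.5% in DSS mice. They called up to 7.73% in colon, up to 0.196% in blood and up to 0.289% for the interaction. The 1 in colon was miR-342-3p without mouse 1, and the 4 in control mice came without mouse 4, when miR-150-5p, miR-342-5p and miR-181d-5p had adjusted p above 0.05. Over these fits the log2 difference ran from -0.11 to 0.82 for miR-150-5p in colon and from -0.25 to 0.24 in blood, and for the interaction from -0.60 to 0.52 for miR-150-5p, from -0.64 to 0.70 for miR-150-3p and from -0.63 to 0.24 for miR-342-3p.

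With the mouse as a replicate block, 6 and 5 members were called for blood against colon in control and DSS mice, beside 83.8% and 81.6% of all miRNAs. For the interaction 0 members were called, beside 0.147% of all miRNAs (1 of 680), and miR-150-5p turned to 0.11. Beside miR-181d-5p and miR-342-3p, given above, the block changed no other call. Without the pairing of mice, exact permutation tests of blood against colon put 4 ratios under an adjusted p of 0.05 (0.0114 for each), those of miR-181b-5p, miR-181c-5p and miR-181d-5p to miR-181a-5p and of miR-150-5p to miR-342-3p.

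The grouping of the disease state field gave 0 called members in colon, blood and the interaction, beside 0 of all 542, 484 and 680 miRNAs. Its log2 fold changes of the opposite sign in colon were -1.27 for miR-150-5p, -0.88 for miR-150-3p, -0.69 for miR-342-3p, -0.26 for miR-342-5p, 0.068 for miR-181c-5p and 0.19 for miR-181d-5p. In blood they were -0.15 for miR-150-3p, -0.13 for miR-181a-5p, -0.0092 for miR-181b-5p and -0.080 for miR-181d-5p. For miR-181d-5p in blood against colon they were 0.045 in mice 7, 8 and 9 and -0.27 in mice 1, 2 and 4. In the interaction they were 1.07 for miR-150-5p, 0.66 for miR-150-3p, 0.73 for miR-342-3p, -0.067 for miR-181a-5p and -0.31 for miR-181d-5p. Of the log2 ratios in colon, miR-342-3p to miR-342-5p turned to -0.33, and miR-181c-5p and miR-181d-5p to miR-181a-5p to 0.14 and 0.30. In blood, miR-150-5p to miR-150-3p turned to 0.13, miR-181b-5p and miR-181d-5p to miR-181a-5p to 0.19 and 0.11, and miR-150-5p to miR-223-3p to 0.042.

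By total counts alone the sign turned for miR-181a-5p, miR-181b-5p and miR-181c-5p in colon (0.14, 0.043 and 0.061), for miR-150-5p in blood (0.13) and for miR-181d-5p between tissues in DSS mice (-0.44). By total counts without miR-486 it turned for the same strands in colon (0.15, 0.045 and 0.062), for miR-150-5p in blood (0.13), for miR-342-3p, miR-342-5p and miR-181d-5p between tissues in control mice (0.91, 0.74 and 0.89), and for miR-342-3p, miR-342-5p and miR-181c-5p in DSS mice (0.46, 0.015 and 0.88). With upper-quartile factors it turned for miR-150-5p in blood (0.0095), for miR-342-3p, miR-342-5p and miR-181d-5p between tissues in control mice (0.59, 0.41 and 0.57), and for miR-342-3p and miR-181c-5p in DSS mice (0.31 and 0.66). With all 12 libraries in 1 fit, miR-150-5p and miR-342-5p in blood had 0.19 and 0.021. The cause of these changes was not tested, and none of these values was called except where the tissues were compared. RLE factors, DESeq2, limma, both filters, identical entries kept once and 1 added to each count turned no sign among the values of the 8 that they gave. For miR-181c-3p in blood against colon of control mice, RLE factors moved the value from -0.28 to 0.038. Without a filter, 76 of 1300 miRNAs in colon, 25 of 1121 in blood and 27 of 1405 for the interaction were called, and DESeq2 called 37 for the interaction. In colon, 32 higher and 23 lower miRNAs were called with TMM, 6 and 10 with RLE factors, 4 and 4 with upper-quartile factors and 38 and 9 by total counts. Between tissues in control mice, 243 were called higher and 345 lower in blood with TMM, and 312 and 272 by total counts without miR-486.

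With 3 mice a group, exact tests of ratios between DSS and control mice cannot reach p of 0.05, miR-150-3p and miR-181c-5p rest on as few as 20 and 27 counts, and a difference that was not called is not shown to be absent.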
